A study of Rattus norvegicus with 25 samples.

Results

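Slc12a5 and Slc12a2 encode the neuronal potassium-chloride cotransporter KCC2 and the sodium-potassium-chloride cotransporter NKCC1. Their transcripts were followed through postnatal development of the rat medial prefrontal cortex, the part of the frontal cortex near the midline. The 2 genes were taken by Ensembl gene ID, ENSRNOG00000018111 for Slc12a5 and ENSRNOG00000015971 for Slc12a2, from a table of 29516 gene IDs, and both were present. The table gives IDs without names, and 0 of its IDs matched the reference table used here, so the pairing of ID and symbol was taken as given and not checked. RNA was sequenced from wild-type rats of the Wistar strain, with no treatment given in the labels, aged 8, 14, 21, 35 or 70 postnatal days (P8 for day 8, and so on). There were 25 libraries, 5 per age, and the study asked how transcription differs between these stages. Sex is not stated in the sources used here. Whether the 5 libraries of an age come from 5 animals is not stated either, and the p-values cover only the spread between libraries, which may be technical.

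KCC2 carries chloride out of neurons together with potassium, and NKCC1 carries chloride into cells together with sodium and potassium. The balance of this pair sets the chloride gradient, and with it whether opening of GABA-A receptors, which pass chloride, depolarizes or hyperpolarizes a neuron. In the rodent cortex this balance is known to move from import towards export as neurons mature. In the brain KCC2 is made largely by neurons, while NKCC1 is also made by glia, vessel cells and the choroid plexus. The tissue was sequenced in bulk, so fewer cells of a type and less RNA per cell cannot be told apart. Markers of the tissue and of its cell types were not analysed here, since the IDs carry no names.

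The DNA just before the start of each gene is shown as a description, and a link between its letters and the levels was not tested. The sequences are the 250 bases before the RefSeq start in build GRCr8, on the plus strand, at chr3:174115583-174115832 for Slc12a5 and chr18:53546083-53546332 for Slc12a2. Capitals mark the GC box GGGCGG, a site bound by Sp-family factors.
Slc12a5: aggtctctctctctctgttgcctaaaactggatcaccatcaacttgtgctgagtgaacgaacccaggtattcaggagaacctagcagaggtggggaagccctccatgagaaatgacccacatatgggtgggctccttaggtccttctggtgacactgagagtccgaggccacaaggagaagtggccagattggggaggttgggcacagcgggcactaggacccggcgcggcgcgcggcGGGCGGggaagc
Slc12a2: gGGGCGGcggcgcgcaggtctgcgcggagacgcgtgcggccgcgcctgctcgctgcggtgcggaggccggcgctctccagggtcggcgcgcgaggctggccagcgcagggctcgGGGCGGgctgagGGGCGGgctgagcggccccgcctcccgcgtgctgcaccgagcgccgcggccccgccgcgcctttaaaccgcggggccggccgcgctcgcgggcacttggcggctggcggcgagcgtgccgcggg
The Slc12a2 sequence had a GC content of 83.2%, higher than 99.6% of the 33469 promoters in the RefSeq table over the same length, and held 48 CG pairs. The Slc12a5 sequence had a GC content of 59.2%, higher than 73% of promoters, and held 11 CG pairs. The median promoter had 51.2% and 5. The GC box occurred 3 times before Slc12a2 and 1 time before Slc12a5, searched on both strands with overlaps allowed. At least 1 match was present in 30.5% of all promoters and at least 3 in 7.41%. The E-box CACGTG (5.59% of promoters), the EGR motifs GCGTGGGCG (0.478%) and GCGGGGGCG (2.45%) and the TATA motif TATAAA (12.9%) had 0 matches in either sequence. These matches are descriptions of letters, and Slc12a5 has further known starts that the table does not list.

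Levels are given in FPKM, fragments per length of transcript and per number of fragments mapped. The correction for length allows the 2 genes to be compared within a library, as far as the transcript lengths used hold for both. FPKM totals ran from 472548 to 1649378 between libraries, and 37.8% to 67% of each total fell on its 10 highest gene IDs, so that the scaling of a library can move all of its values. The ratio of the 2 genes within a library and their rank among other genes do not depend on that scaling. Changes between ages were tested with limma on log2(FPKM + 0.5), over the 14128 gene IDs with at least 1 FPKM in at least 5 libraries, with p-values adjusted over all of them. Both genes passed this filter.

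Slc12a5 rose steeply between P8 and P14 and was 3.11-fold higher at P70 than at P8. At P8 the libraries read 19.1, 17.1, 21.1, 16.5 and 14.4 FPKM, a mean of 17.6 ± 2.57 (SD, n = 5). At P14 they read 54.7, 43.9, 31.1, 33 and 44.6 FPKM, a mean of 41.5 ± 9.63 (SD, n = 5). Every P14 library lay above every P8 library, as it did at 9.51% of the gene IDs tested. The change was 1.19 ± 0.14 log2 units (SE, limma adjusted p = 5.82e-07), or 2.35-fold in the means. Of all gene IDs tested, 13.6% rose between these ages by the same rule and 28.9% changed in either direction. With FPKM totals made equal the calls split into 396 rises and 109 falls, against 1925 and 2165 as deposited. The rise of Slc12a5 was larger than the change of 99% of gene IDs, and the median change of all gene IDs was -0.06 log2 units.

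The 5 libraries at P14 were also the most dispersed for this gene, with a coefficient of variation of 23.2%, against 14.6% at P8 and 8.37% at P35. The lowest P14 library, replicate 3 at 31.1 FPKM, was above the P8 maximum of 21.1. The highest, replicate 1 at 54.7 FPKM, was close to the P70 mean.

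From P21 on, Slc12a5 stayed on a high level. The P21 libraries read 44.7, 45, 45.9, 47.8 and 60.6 FPKM, a mean of 48.8 ± 6.7 (SD, n = 5). Replicates 1 to 4 lay close together, and replicate 5 stood above them. The P35 libraries read 53.4, 45.2, 51.8, 55.1 and 56.4 FPKM, a mean of 52.4 ± 4.38 (SD, n = 5). The P70 libraries read 60.7, 56.9, 48, 46.4 and 62.6 FPKM, a mean of 54.9 ± 7.34 (SD, n = 5). All P70 libraries were above all P8 libraries, as at 15.5% of gene IDs, and the log2 change was 1.61 ± 0.14 (SE, limma adjusted p = 8.14e-10). Of all gene IDs, 54.5% changed from P8 to P70 and 19.9% rose. The 5 age means followed age, but only the step from P8 to P14 passed the test among the 4 steps.

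The later steps of Slc12a5 were smaller than the first, and none passed the test with the values as deposited. From P14 to P21 the log2 change was 0.25 (95% interval -0.03 to 0.54, limma adjusted p = 0.221), and the libraries overlapped. After scaling that brings the bulk of genes to the same level, this step did pass, at 0.39 with quantile normalization (limma adjusted p = 0.04) and 0.36 with median-of-ratios scaling (limma adjusted p = 0.049). Of all gene IDs, 18.4% and 19.8% were called in this step under these scalings. With FPKM totals made equal the step was -0.066 (limma adjusted p = 0.898). As deposited, the log2 change from P21 to P35 was 0.11 (95% interval -0.18 to 0.39, limma adjusted p = 0.841). From P35 to P70 it was 0.06 (95% interval -0.22 to 0.35, limma adjusted p = 1), and from P21 to P70 it was 0.17 (95% interval -0.12 to 0.45, limma adjusted p = 0.577). The background of calls in either direction fell as well, to 17.4% from P14 to P21, 1.62% from P21 to P35, 0.12% from P35 to P70 and 6.12% from P21 to P70. On the log2 scale, Slc12a5 had covered 73.8% of its P8 to P70 change by P14, 89.6% by P21 and 96.2% by P35.

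**Figure D1:**
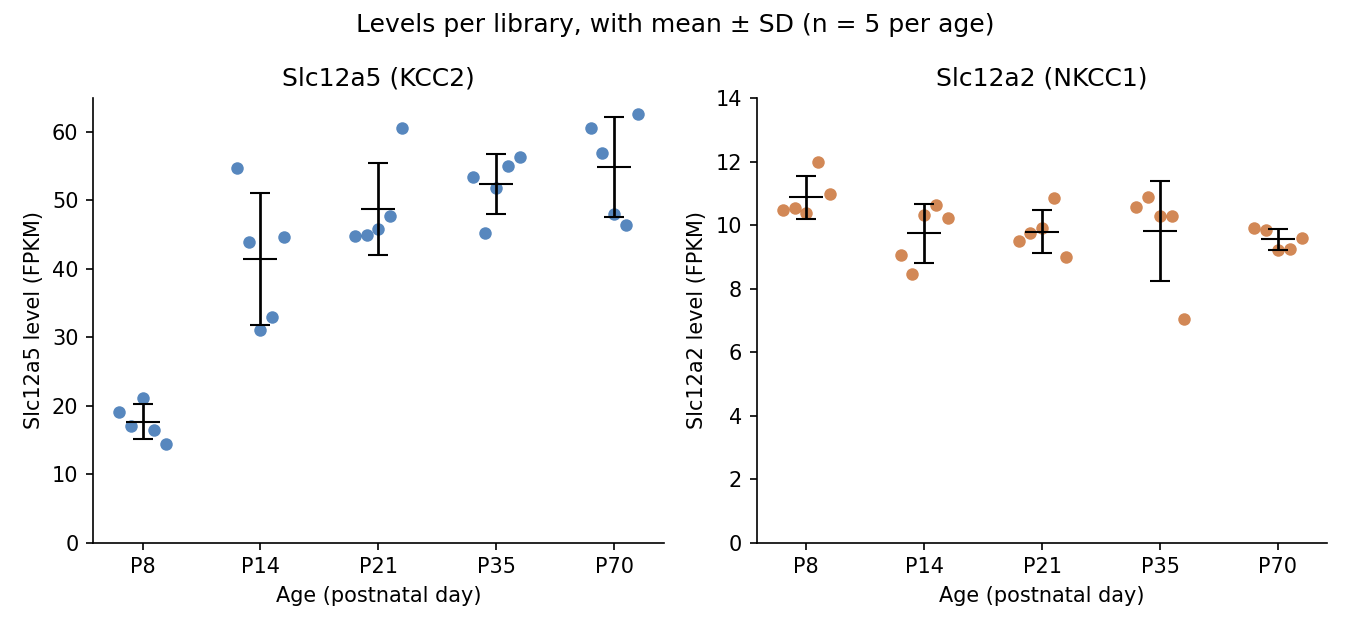
FPKM of Slc12a5 (left) and Slc12a2 (right) in each library at each age; points are libraries, and bars show the mean ± SD of 5 libraries. Slc12a5 rises from 17.6 FPKM at P8 to 41.5 at P14 and 54.9 at P70, while the Slc12a2 means lie between 9.55 and 10.9 FPKM at every age.

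Slc12a2 stayed within a narrow band, and none of its changes passed in the fit of all 25 libraries as deposited. At P8 its libraries read 10.5, 10.5, 10.4, 12 and 11 FPKM, a mean of 10.9 ± 0.672 (SD, n = 5). At P14 they read 9.07, 8.46, 10.3, 10.6 and 10.2 FPKM, a mean of 9.74 ± 0.928 (SD, n = 5). At P14, 4 of the 5 libraries lay below the lowest at P8, with a log2 change of -0.15 (95% interval -0.34 to 0.03, limma adjusted p = 0.221). The P21 libraries read 9.49, 9.74, 9.9, 10.8 and 9 FPKM, a mean of 9.79 ± 0.677 (SD, n = 5). The P35 libraries read 10.6, 10.9, 10.3, 10.3 and 7.03 FPKM, a mean of 9.81 ± 1.57 (SD, n = 5). Replicate 5 at P35 was the lowest of all 25 libraries. The P70 libraries read 9.9, 9.85, 9.21, 9.23 and 9.58 FPKM, a mean of 9.55 ± 0.327 (SD, n = 5), the tightest group of the 5. Over the 5 ages the limma F-test gave an adjusted p of 0.413, while 55.5% of all gene IDs passed it. For Slc12a5 the same F-test gave an adjusted p of 1.86e-09.

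In ascending order the Slc12a2 means in FPKM were those of P70, P14, P21, P35 and P8. On the log2 scale of the test the P35 mean lay below those of P14 and P21 instead. The log2 change was 0.01 from P14 to P21 (95% interval -0.18 to 0.2, limma adjusted p = 0.956), -0.01 from P21 to P35 (-0.2 to 0.18, limma adjusted p = 0.983) and -0.02 from P35 to P70 (-0.21 to 0.17, limma adjusted p = 1). From P21 to P70 it was -0.03 (95% interval -0.22 to 0.16, limma adjusted p = 0.899). The libraries of neighbouring levels overlapped throughout, P35 and P8 included.

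The largest Slc12a2 difference was between the first and the last age. All 5 P70 libraries, at 9.21 to 9.9 FPKM, lay below all 5 P8 libraries, at 10.4 to 12 FPKM, as at 28.5% of gene IDs. The mean at P70 was 0.879 of that at P8, with a log2 change of -0.18 (95% interval -0.37 to 0.01, limma adjusted p = 0.108), whereas 34.6% of gene IDs fell by the test. The median change of all gene IDs was -0.16, and Slc12a2 less that median was -0.02. Without P35 replicate 5 the spread of this gene shrank and the same change of -0.18 passed, with a limma adjusted p of 0.024. It also passed in a fit of the P8 and P70 libraries alone (limma adjusted p = 0.0381). With quantile normalization the change was -0.04 (limma adjusted p = 0.764) and with median-of-ratios scaling -0.02 (limma adjusted p = 0.905). The split of all calls moved with the scaling too, from 2810 rises and 4892 falls as deposited to 3908 and 3879 with median-of-ratios scaling.

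**Figure D2:**
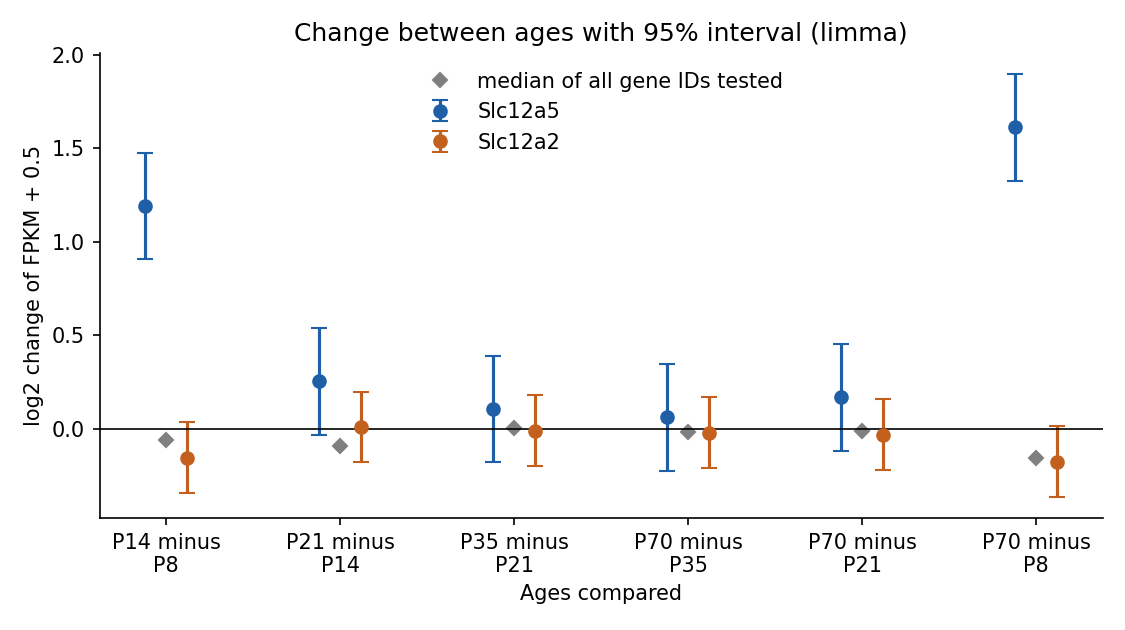
Log2 change of FPKM + 0.5 between ages for Slc12a5 and Slc12a2, with 95% intervals from limma, and the median change of all gene IDs tested (diamonds). The Slc12a5 interval clears 0 from P8 to P14 (1.19) and from P8 to P70 (1.61), and the Slc12a2 change from P8 to P70 (-0.18) sits beside the median of all gene IDs (-0.16).

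Rank among other genes gave the same division without any scaling. At P8, Slc12a5 exceeded 77.1% ± 3.43 of the gene IDs tested, and at P14 90.9% ± 1.91 (SD, n = 5). The P21 and P35 libraries averaged 93.3% ± 1.07 and 93.6% ± 0.966, and the P70 libraries 94.3% ± 0.402 (SD, n = 5). Its rank in the lowest P14 library (88.7%) was above that in the highest P8 library (81.3%). Slc12a2 exceeded 64.9% ± 1.5 of gene IDs at P8 and 62.1% ± 4.67 at P14 (SD, n = 5). It exceeded 64.2% ± 2.71 and 63.9% ± 4.13 at P21 and P35, and 64.1% ± 2.71 at P70 (SD, n = 5). Its libraries overlapped in rank between all ages.

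The ratio of Slc12a5 to Slc12a2 put the FPKM of the exporter transcript above that of the importer in each of the 25 libraries. This order rests on the transcript lengths used for FPKM, which are not stated in the sources used here. At P8 the ratio was 1.82, 1.62, 2.04, 1.38 and 1.31, a mean of 1.63 ± 0.304 (SD, n = 5). At P14 it was 6.03, 5.19, 3.02, 3.1 and 4.37, a mean of 4.34 ± 1.31 (SD, n = 5). The groups did not overlap. The difference of mean log2 ratios was 1.38 ± 0.23 (SE), a 2.59-fold rise in the geometric mean, with p = 0.00794 by an exact two-sided permutation test (adjusted p = 0.0238 over 6 contrasts). That p is the smallest that 5 libraries against 5 can give. Since the ratio rose, the 2 transcripts changed unequally over this week.

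No later step of the ratio passed the test. It was 4.72, 4.62, 4.64, 4.41 and 6.74 at P21, a mean of 5.02 ± 0.964 (SD, n = 5), with replicate 5 far above the others. At P35 it was 5.06, 4.15, 5.04, 5.35 and 8.02, a mean of 5.52 ± 1.47 (SD, n = 5), again with replicate 5 on top. At P70 it was 6.13, 5.78, 5.21, 5.03 and 6.53, a mean of 5.73 ± 0.626 (SD, n = 5). The ratio at P70 was above that at P8 in every library, by 1.82 ± 0.14 log2 units (SE; exact permutation test, p = 0.00794, adjusted p = 0.0238), or 3.54-fold. By exact two-sided permutation tests the adjusted p was 0.452 from P14 to P21 (0.25 ± 0.23 SE), 0.638 from P21 to P35 (0.12 ± 0.19 SE) and 0.675 from P35 to P70 (0.08 ± 0.17 SE), on the log2 scale.

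One library decided the comparison of P70 with P21. With all libraries the log2 ratio differed by 0.2 ± 0.13 (SE; exact permutation test, adjusted p = 0.317). Without P21 replicate 5 it differed by 0.31 ± 0.07 (SE), with an exact p of 0.0159 and an adjusted p of 0.0317. Of the 25 fits that left out 1 library, only this 1 passed. The library left out was the one that stood apart at P21 in this same ratio. The remaining P21 ratios, 4.41 to 4.72, then lay below all P70 ratios, 5.03 to 6.53. P21 replicate 5 had the lowest sequencing depth of the series, 0.386 of the median library. P35 replicate 5 had 0.951 of the median depth. The part of depth in these values was not tested.

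**Figure D3:**
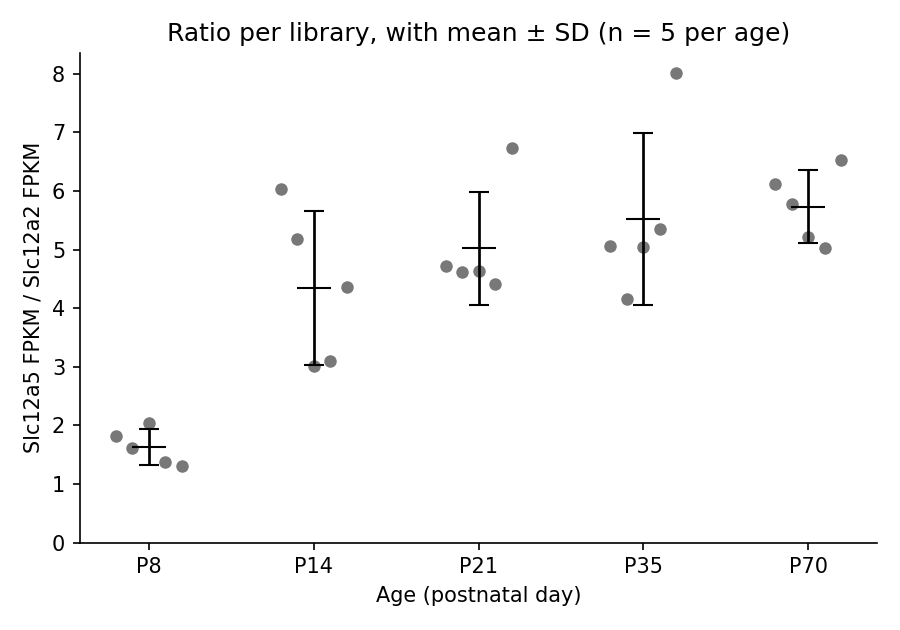
Ratio of Slc12a5 FPKM to Slc12a2 FPKM in each library at each age; points are libraries, and bars show the mean ± SD of 5 libraries. The P8 ratios (1.31 to 2.04) lie below all others, and P21 replicate 5 (6.74) and P35 replicate 5 (8.02) stand above the libraries of their age.

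Whole reads could be recovered for Slc12a2, because its FPKM times the depth of a library was a whole multiple of 1 value in 25 of 25 libraries, within 0.05 reads. The reads numbered 577 in P21 replicate 5 to 2356 in P21 replicate 4, with a median of 1659. P35 replicate 5 held 1110. Counting error alone gives an SD of 0.04 log2 units at these reads, against the 0.14 seen between libraries of an age. Copies made by PCR cannot be told apart in such reads, and this figure covers counting only. The spread of Slc12a2 was low, and 9.85% of the gene IDs tested had a smaller spread than Slc12a2. For Slc12a5 no common read value was found, so its read numbers are unknown. Its SD between libraries of an age was 0.22 log2 units, and 50.8% of gene IDs had a smaller one.

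The sample titles carry a number after the age that several libraries of an age share. There are 15 such numbers, 3 per age, and their meaning is not stated in the labels. Libraries with the same number mostly had like Slc12a5 levels. At P70 those numbered 2 read 60.7 and 56.9 FPKM, those numbered 3 read 48 and 46.4, and the one numbered 4 read 62.6. At P8 those numbered 25 read 19.1 and 17.1 FPKM, those numbered 27 read 16.5 and 14.4, and the one numbered 26 read 21.1. At P21 those numbered 14 read 44.7 and 45 FPKM, those numbered 15 read 45.9 and 47.8, and the one numbered 16 read 60.6. Some numbers of an age lay close to each other. At P8, 17.1 was nearer to 16.5 than to 19.1, and at P21, 45.9 was nearer to 45 than to 47.8. Number 20 at P14, with 43.9, 31.1 and 33 FPKM, was an exception. So was number 10 at P35, with 53.4 and 45.2 FPKM on either side of one library numbered 11, at 51.8 FPKM, the other of which read 55.1. Over all ages the median difference within a number was 0.09 log2 units (11 pairs) and that between numbers of the same age 0.29 (39 pairs), a ratio of 3.18. For the Slc12a5 to Slc12a2 ratio the same medians were 0.08 and 0.33, a ratio of 3.88. For Slc12a2 they were 0.04 and 0.09, a ratio of 2.19. The median over gene IDs tested was 1.18, and 2.23% reached the value of Slc12a5. The pairs share libraries, so these are descriptions. Both outlying libraries, P21 replicate 5 and P35 replicate 5, were the only ones with their number.

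With that number as a random block, the limma change of Slc12a5 from P8 to P14 was 1.23 ± 0.16 log2 units (SE, adjusted p = 3.78e-06) and from P8 to P70 1.61 ± 0.15 (SE, adjusted p = 8.32e-09). This fit used 1 correlation within numbers, 0.33, for all gene IDs. Slc12a5 was more alike within numbers than most gene IDs, so these SE may be too small. With 1 mean ratio per number, 3 per age, all P14 and P70 means were above all P8 means. That design cannot go below an exact p of 0.1.

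**Figure D4:**
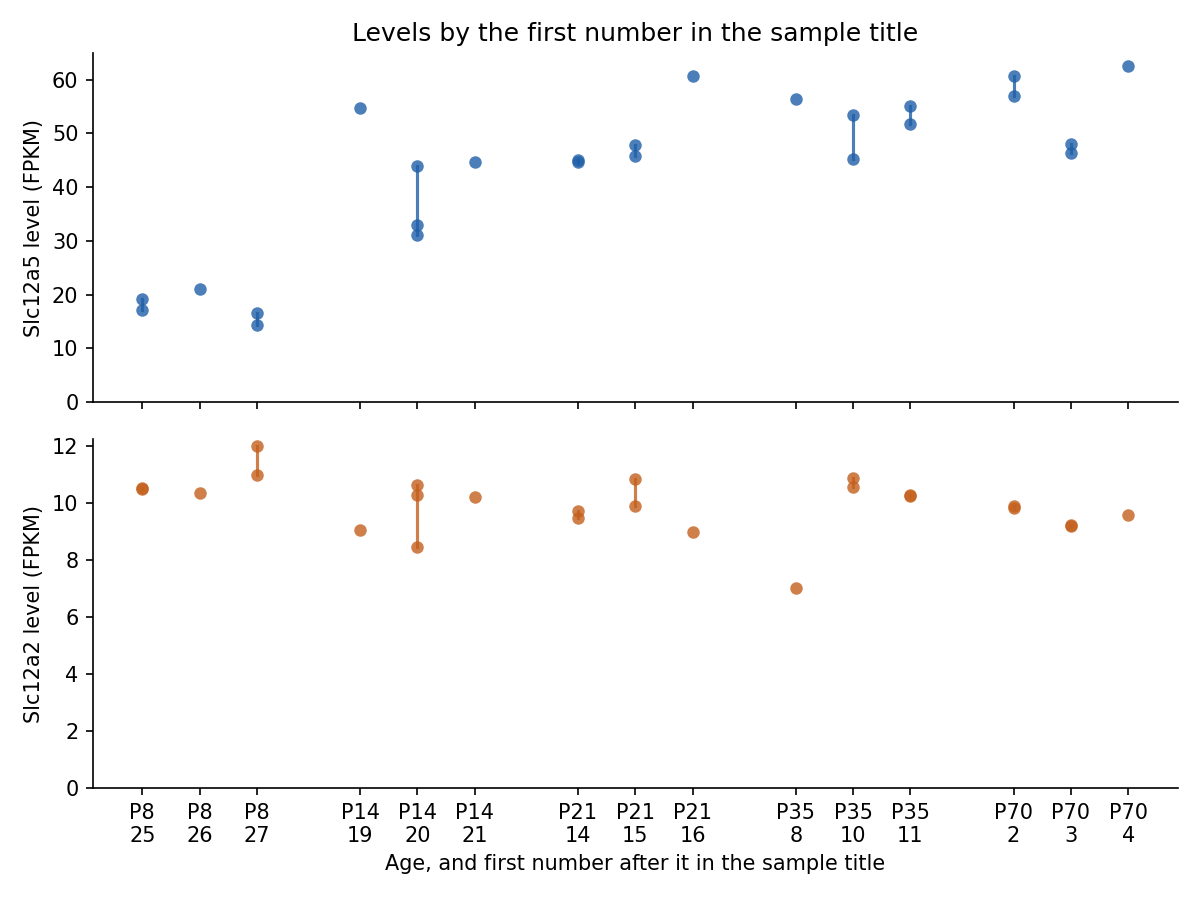
FPKM of Slc12a5 (top) and Slc12a2 (bottom) by age and by the number that follows the age in the sample title; points are libraries, and lines join those that share a number. At P70 the Slc12a5 libraries numbered 3 (46.4 and 48 FPKM) lie below those numbered 2 (56.9 and 60.7 FPKM).

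The gene IDs most like each gene were looked up by correlation. Over the 25 libraries, 320 of the other 14127 gene IDs had a Pearson correlation of at least 0.9 with Slc12a5 on the log2 scale, and 128 had one of -0.9 or below. The closest was ENSRNOG00000027707 (r = 0.97), with means of 5.97 ± 0.368 FPKM for P8, 11.4 ± 1.07 for P14 and 15.1 ± 1.68 for P70 (SD, n = 5). Next was ENSRNOG00000008919 (r = 0.97), at 43 ± 5.7, 92.4 ± 7.67 and 107 ± 9.69 FPKM. Much of this likeness is the shared step from P8 to P14. Within ages, after the age means were removed, their correlations with Slc12a5 were 0.72 and 0.67, where the median gene ID had 0.13. Both were picked for correlation over these same libraries, which raises the within-age values too. This gap is therefore no separate sign of likeness. Slc12a2 had no age course that passed the F-test, so its correlations are not comparable with those of Slc12a5, which carry the age steps. The gene ID most like it was ENSRNOG00000003691 (r = 0.83), at 40.3 ± 4.53 FPKM at P8, 32.8 ± 7.77 at P14 and 31.2 ± 1.91 at P70 (SD, n = 5). The next was ENSRNOG00000000718 (r = 0.79), at 19.4 ± 2.61, 13.5 ± 3.53 and 11.9 ± 0.776 FPKM. A correlation of at least 0.9 with Slc12a2 was reached by 0 gene IDs, and one of at least 0.8 by 1. Within ages the correlations of these nearest gene IDs with Slc12a2 were 0.8 and 0.77, so this likeness lies largely between libraries of the same age. They too were picked over these same libraries. These correlations are descriptions over 25 libraries that share their scaling, and no names can be given.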

How the data were processed

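RNA of the prefrontal cortex was depleted of ribosomal RNA and sequenced as 50 bp single-end reads, per the labels' protocols. The authors deposited 1 table of FPKM values with 1 column per library and Ensembl gene IDs as rows. Reads were aligned to the rn4 assembly with GSNAP, per the labels' protocols, and BWA 0.6.1, bedtools and Cufflinks are named without a role, per the submitters' processing notes. Annotation, strand setting and filters are not stated in the sources used here, and reads shared between overlapping genes or splice forms carry uncertainty. Columns were matched by sample title and grouped by age, and replicate numbers follow accession order and only name a library.

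Tests used limma 3.58.1 in R 4.3.3 with empirical Bayes and a trend, on log2(FPKM + 0.5), in 1 fit of 25 libraries with 20 residual degrees of freedom, two-sided, with Benjamini-Hochberg adjustment over 14128 gene IDs at a threshold of 0.05. A log2 change on this scale slightly understates the change. The fitting steps were tested on simulated data before use. With 200 of 14128 gene IDs changed at P14, 56.5% of 1.5-fold and 88% of 2-fold changes were called from P8 to P14. Smaller changes may thus be missed. These shares are averages over gene IDs drawn at random, with noise drawn independently in each library. In the data far more gene IDs were called from P8 to P14 (28.9%). The shares therefore do not hold for either of the 2 genes in particular. Ratios carry no pseudocount and were compared by exact two-sided permutation tests over 6 contrasts. Relative depth and reads came from the steps between low values in pairs of libraries. No 2 columns were identical (0 pairs). The 2 genes, the lists and the tests were chosen with earlier results of these data known. Named were the 2 genes and the 2 gene IDs most correlated with each. Lists of transport partners, GABA receptor subunits and cell type markers were not analysed here, since the file gives no names. Promoter sequences are from RefSeq, build GRCr8. Alternatives are given in the closing section, and leaving out P21 and P35 replicate 5 together was chosen after seeing the data.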

Additional observations from a re-analysis of the deposited data

Results flagged for a closer look

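Of 15 groups of 5 libraries (Slc12a5, Slc12a2 and their ratio at 5 ages), 3 held a value far from the remaining 4, a number to be read against the 0.75 that such a search finds in groups of this kind by chance. In P21 replicate 5, Slc12a5 stood at 60.6 FPKM, and the remaining P21 libraries ranged from 44.7 to 47.8. By rank it was less apart, exceeding 94.5% of the gene IDs tested, beside 91.9% to 94.2%. The 10 highest gene IDs held 67% of the FPKM total of P21 replicate 5, the largest share of the series. The ratio of Slc12a5 to Slc12a2 in the same library was 6.74, beside 4.41 to 4.72. In P35 replicate 5, Slc12a2 stood at 7.03 FPKM, beside 10.3 to 10.9. These 3 values come from 2 libraries, and the ratio contains the Slc12a5 value. Slc12a2 in P21 replicate 5, at 9 FPKM, was also the lowest of its age.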

How the results depend on the processing

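The rise of Slc12a5 from P8 to P14 and from P8 to P70 kept its direction and its call under every alternative run, with log2 changes of 1.08 to 1.28 and 1.54 to 1.68 when 1 library was left out. Its step from P14 to P21 (0.25) passed at 0.39 with quantile normalization and at 0.36 with median-of-ratios scaling. With 1 library left out its later steps ranged from 0.16 (without P14 replicate 3) to 0.36 (without P14 replicate 1) from P14 to P21, 0.078 to 0.19 (without P21 replicate 5) from P21 to P35, 0.0098 (without P35 replicate 2) to 0.12 (without P70 replicate 4) from P35 to P70 and 0.12 to 0.25 from P21 to P70, and none passed. With FPKM totals made equal the Slc12a5 step from P14 to P21 was -0.066, and the Slc12a2 changes turned sign, to 0.094 from P8 to P14, -0.29 from P14 to P21, 0.062 from P21 to P35, 0.086 from P35 to P70 and 0.15 from P21 to P70, with an SE of 0.321. From P35 to P70 Slc12a2 also came to 0.0071 with quantile normalization and 0.00598 with the title number as a random block. With 1 library left out, Slc12a2 ranged from -0.037 to 0.042 from P14 to P21, -0.0503 to 0.099 from P21 to P35, -0.13 to 0.019 from P35 to P70, -0.0601 to 0.0038 from P21 to P70 and -0.19 to -0.14 from P8 to P70. Its P8 to P70 change of -0.18 passed without P35 replicate 5, without P21 and P35 replicate 5 together (chosen after seeing the data, limma adjusted p = 0.0217) and in a fit of these 2 ages alone. Without those 2 libraries its step from P21 to P35 was 0.07. The log2 ratio was 1.43 from P8 to P14 and 1.83 from P8 to P70 by medians, and 1.45 and 1.8 with 1 mean per title number. These exact tests did not pass (adjusted p = 0.143 and 0.3), and 3 values against 3 cannot go below 0.1. With 1 library left out the ratio ranged from 0.13 to 0.38 from P14 to P21, -0.024 (without P35 replicate 5) to 0.23 from P21 to P35, -0.011 (without P35 replicate 2) to 0.23 from P35 to P70 and 0.15 to 0.31 from P21 to P70, the last past the threshold without P21 replicate 5 (0.31, and 0.31 without P21 and P35 replicate 5).

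The number of gene IDs called, the background for both genes, moved with the settings. Requiring a mean of 5 FPKM left 8156 gene IDs tested, and the share called was then 31.1% from P8 to P14 and 57.3% from P8 to P70, against 28.9% and 54.5%, and 19.5%, 1.56%, 0.0981% and 5.87% in the other contrasts, in the order below. From P8 to P14 it was 4090, but 2533 when a mean of 5 FPKM or more was required and 505 with equal totals. From P14 to P21 it was 2458, but 1591 and 154 under these and 1411 with the title number as a block. From P21 to P35 it was 229, but 127, 3 and 78 under these, 435 with quantile normalization, 471 with median-of-ratios scaling and 74 from these 2 ages alone. From P35 to P70 it was 17, but 8, 7, 5, 28, 39 and 7 in the same order. From P21 to P70 it was 864, but 479, 20, 448, 1386 and 1436 in that order without the last. From P8 to P70 it was 7702, but 4672 and 2408 under the first 2. With 1 library left out, the count from P21 to P35 ranged from 123 (without P21 replicate 3) to 305 and was under 229 by over 1.5 times without P21 replicate 2 (145) or 4 (144) and without P35 replicate 1 (145), 2 (137) or 3 (151). From P35 to P70 its lowest value was 7, when P35 replicate 2 was dropped, and its highest 27, when P35 replicate 5 was, and it was 11 without P35 replicate 1 or P70 replicate 2, 3 or 4. No paired analysis was possible because replicate numbers only follow accession order and no title number recurs at another age. Slc12a2 had 577 reads or more in every library, the reads of Slc12a5 are unknown, and the part of depth in the values was not tested.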

Other observations

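Within ages, libraries with more Slc12a5 tended to have less Slc12a2. After the age means were removed, Pearson's r was -0.38 (permutation p = 0.0471) and Spearman's rho -0.44 (permutation p = 0.042) over 25 libraries, with labels permuted within ages and both adjusted to 0.0471. In each alternative r stayed near this size and the p no longer passed. Without P14 replicates 1 and 3, the 2 farthest from the median in Slc12a5, r was -0.34 (permutation p = 0.0921). Without P21 replicate 5 and P35 replicate 5 it was -0.39 (permutation p = 0.211), and with median-of-ratios scaling -0.38 (permutation p = 0.137). With 1 mean per title number it was -0.38 over 15 means (permutation p = 0.0548). These alternatives were chosen after seeing the data. Of the other gene IDs, 2.77% had a lower within-age correlation with Slc12a5 than Slc12a2 had.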
